A study of Drosophila melanogaster with 5 samples.

Results

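The genes described here encode the subunits of the 26S proteasome of Drosophila melanogaster and their T and R paralogs. They were chosen by name, as the genes whose symbol starts with Prosalpha, Prosbeta, Rpn or Rpt followed by a digit, and no measured value entered that choice. There were 48 such genes, 32 of them canonical subunits and 16 of them paralogs with T or R after the number. Counts were listed for 31 canonical subunits and 15 paralogs, among 13265 genes listed in at least 1 library. Prosalpha1 and Prosalpha1R, neighbouring copies on arm 2R, were listed in no library and are not analysed here.

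The proteasome degrades proteins that carry ubiquitin chains. Its core particle is a barrel of outer rings of alpha subunits, which gate the entry, and inner rings of beta subunits, of which Prosbeta1, Prosbeta2 and Prosbeta5 carry the proteolytic sites. The regulatory particle has a base, with a ring of ATPases (Rpt1 to Rpt6) that unfold the substrate and the non-ATPase subunits Rpn1, Rpn2, Rpn10 and Rpn13, and a lid, in which Rpn11 removes ubiquitin chains. In Drosophila several subunits have a paralog known for expression in the male germline, and Prosalpha6T is known to be needed for sperm development.

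The series was made to examine transcription that arises from transposable elements, and it holds 5 libraries of polyadenylated RNA. Ovaries of the line iso1a (20 ovaries, 5 µg of RNA) gave 2 strand-specific libraries of capped 5′ ends (CAGE), 1 read by pyrosequencing with the label normalization yes and 1 read on Solexa with normalization no. The other 3 libraries were random-primed, unstranded Illumina libraries of whole bodies, taken from 10 females of 0 to 3 days and 10 males younger than 24 h, all adult. These came from the lines Rev and IR6, both with normalization no, and from iso1a, with normalization yes. Neither the kind of normalization nor the genotype of Rev, IR6 or iso1a beyond the line name is given in the sources used here. With 1 library per group no difference below has a replicate check and no p-value was computed, and the 95% intervals (exact, Clopper-Pearson) cover counting error only. Line and normalization label differ together between iso1a bodies and the other bodies, and tissue and assay differ together between ovary and body, so their parts cannot be told apart.

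Gene counts summed to between 109980 (pyrosequenced ovary) and 11685814 (Rev body), and 3 counts, taken as the lowest reliable count, stood for 27.3 counts per 1000000 gene counts (CPM) in the pyrosequenced ovary and for 0.257 to 1.07 CPM in the other 4 libraries. The 100 most abundant genes held 65.3% and 56.4% of the gene counts of the pyrosequenced and Solexa ovary libraries, 29.1% in Rev, 32.3% in IR6 and 13.1% in iso1a. Of 34 testis and sperm markers 30 and 31 were at 0 in the pyrosequenced and Solexa ovary libraries, among them betaTub85D and dj, and 0 were at 0 in any body library. Male accessory gland markers, 8 in all, were all at 0 in both ovary libraries. Of all 13265 listed genes 5084 and 5804 had counts in the pyrosequenced and Solexa ovary, so most listed genes were at 0 there too. In Rev, IR6 and iso1a 12817, 12717 and 12451 genes had counts. Ovary and female markers summed to 131979, 97132, 85160 and 84526 CPM in the pyrosequenced ovary, the Solexa ovary, Rev and IR6, and to 3085 CPM in the iso1a body. The yolk gene Yp1 alone held 42335 CPM in Rev and 42958 in IR6. In iso1a 13 of the 20 markers were at least 2-fold lower than in both Rev and IR6, as were 19.3% of all genes tested. The markers osk, bcd and orb went the other way, at least 2-fold higher than in both, as were 35.2% of all genes tested. In such bulk samples, fewer cells of a type and less RNA per cell cannot be told apart.

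The canonical subunits were abundant in every library, and their share of gene counts was lowest in the iso1a body. The share of gene counts was 0.687% for the 31 listed genes in the pyrosequenced ovary (interval 0.639% to 0.738%), 0.901% in the Solexa ovary (0.890% to 0.912%), 0.871% for Rev (0.865% to 0.876%), 0.798% for IR6 (0.793% to 0.804%) and 0.245% for the iso1a body (0.240% to 0.249%). All 31 had counts in all 5 libraries. Their median level was 109, 203, 224, 219 and 67.8 CPM in the same order of libraries, a level above 83.6%, 89.2%, 94.3%, 94.3% and 69.2% of the genes with counts there.

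**Figure D1:**
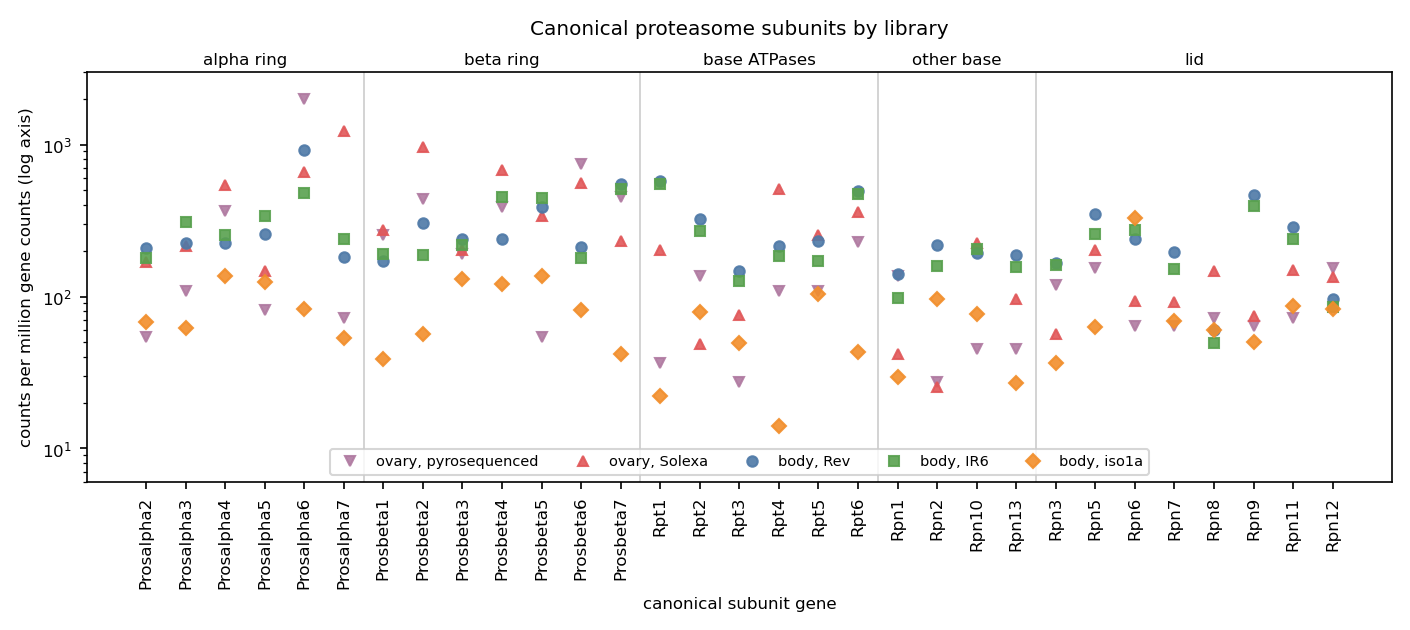
Level of each of the 31 listed canonical subunits (x axis, grouped by subcomplex) in each library, in CPM on a log axis; each point is 1 library. The iso1a body points lie lowest for most subunits, while Rpn6 reaches its highest level there (326 CPM).

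Scaled to transcript length, both rings of the core particle had higher medians than each group of the regulatory particle in the 3 whole bodies, with overlap between single subunits. In Rev the median was 228 CPM per kb for the alpha ring, 293 for the beta ring, 173 for the ATPases, 94.6 for the other base subunits and 136 for the lid. In IR6 the same medians were 281, 239, 146, 75.6 and 122 CPM per kb, and in the iso1a body 75.4, 86.1, 31.3, 23.1 and 45.0. The other base subunits had the lowest median in all 3 bodies. Single subunits broke this order, since Rpt1 and Rpt6 ranked 3 and 4 of the 31 in Rev at 381 and 350 CPM per kb. Without length scaling the ATPases had the highest median in Rev, at 278 CPM against 224 for the alpha and 241 for the beta ring. Within the particle the levels spread 21.1-fold in Rev, 17.2-fold in IR6 and 18.5-fold in iso1a between the lowest and the highest subunit.

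The order of the subunits was close between Rev and IR6 and different in the iso1a body. Prosalpha6, an alpha ring subunit, had the highest level per length in Rev at 859 CPM per kb, against 450 in IR6 and 77.0 in iso1a. Prosbeta4, a beta ring subunit without a proteolytic site, led in IR6 at 557 CPM per kb, and the lid subunit Rpn6, a scaffold known from yeast and mammals to clamp lid and core together, led in the iso1a body at 179. Rpn8, the inactive partner of Rpn11, was lowest in Rev (40.7 CPM per kb), Rpn1, a receptor for ubiquitin-like domains, was lowest in IR6 (32.3), and the ATPase Rpt4 was lowest in the iso1a body (9.66). Over the 31 genes the Spearman correlation of CPM was 0.867 between Rev and IR6, 0.207 between iso1a body and Rev and 0.161 between iso1a body and IR6, as a description of libraries that share transcript lengths. Over all genes tested the same values were 0.959, 0.541 and 0.534.

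Between Rev and IR6, the whole bodies that carry the same labels apart from line, every listed canonical subunit stayed inside 2-fold by CPM. A ratio here is the log2 ratio of CPM with 0.5 counts added, for genes with at least 50 counts in a pair of libraries together, and a gene was called at 2-fold. None of the 31 subunits was called, 0 higher and 0 lower in Rev, where 4.34% of 10300 genes were called higher and 3.47% lower. With so few genes called, a count of 0 is no result about the subunits. The median log2 ratio was 0.22 over the subunits and 0.10 over all genes, and 22 of the 31 lay above 0, as did 6124 of the 10300 genes. The interval for counting error lay above 0 for 21 subunits, below 0 for 8 and held 0 for 2. All 6 ATPases lay above 0, between 0.06 and 0.44, as did 7 of 8 lid subunits, while 4 of 6 alpha ring subunits lay below. With TMM and with median-ratio factors, which lower these ratios by 0.088 and 0.161, 4 of 6 ATPases and 6 of 8 lid subunits lay above 0, and 19 and 17 of the 31 did.

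The subunits farthest from equal between Rev and IR6 belonged to the core particle. Prosalpha6 stood at 920 CPM in Rev and 482 in IR6 (log2 ratio 0.93, interval 0.88 to 0.98). Prosbeta4 stood at 241 CPM in Rev and 453.8 in IR6 (log2 ratio -0.91, interval -0.98 to -0.85). Both lay just inside the 2-fold limit in opposite directions, and Prosbeta4 passed it under both other scalings, at -1.003 with TMM factors and -1.08 with median-ratio factors. Prosbeta2, which carries the trypsin-like site, followed at 303 CPM in Rev and 189 in IR6 (0.68, interval 0.60 to 0.77). Of the 32 canonical genes 13 have exons that overlap another gene, as Prosbeta2 does with Reck on the opposite strand, and reads of such pairs cannot be told apart in the unstranded bodies.

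**Figure D2:**
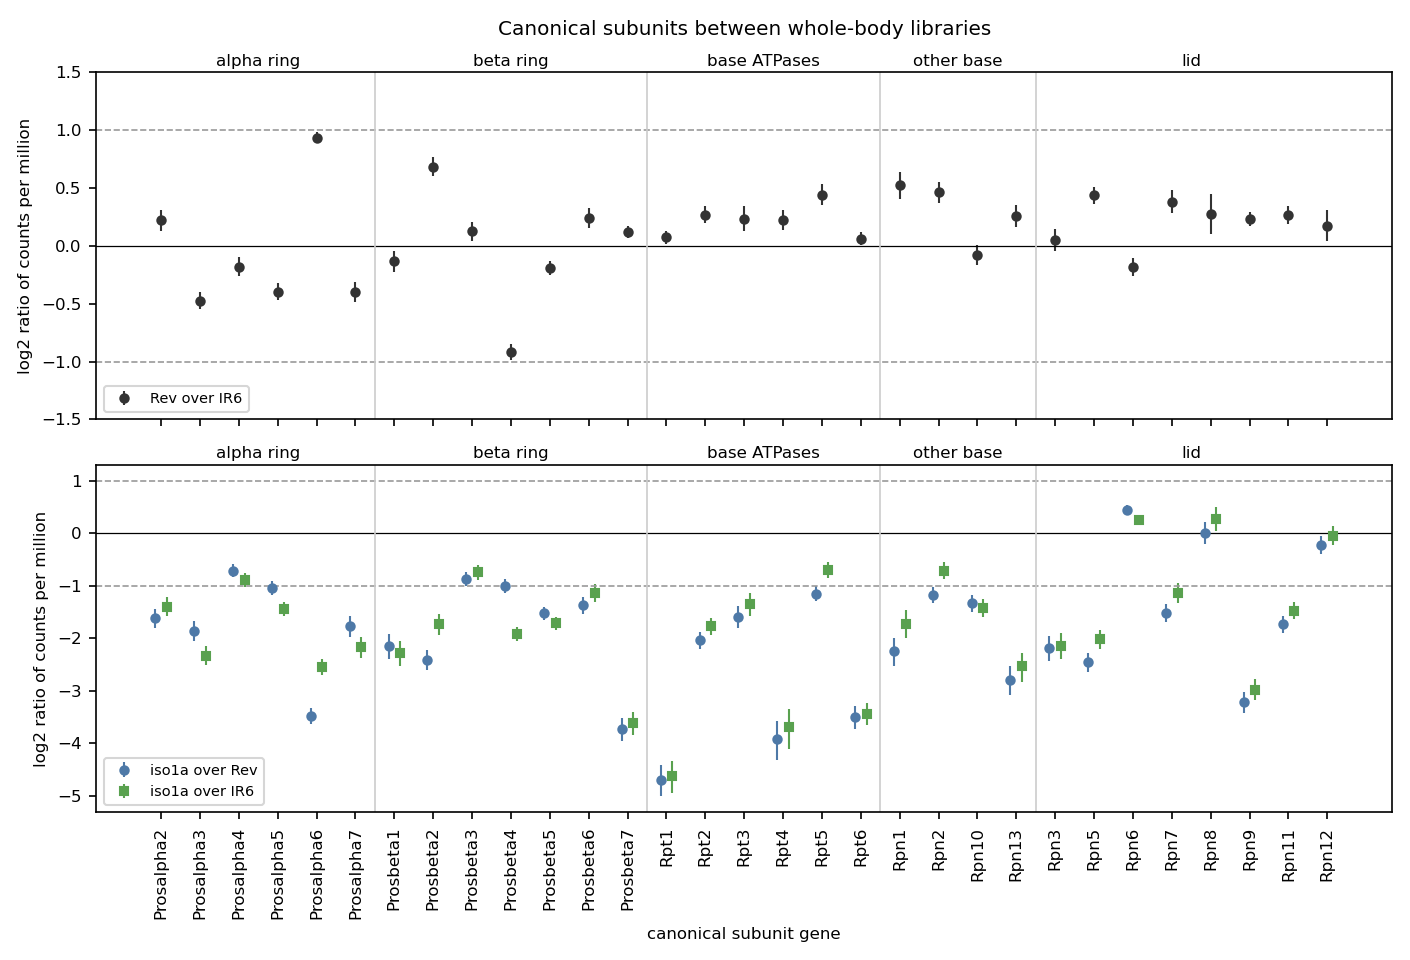
Log2 ratio of CPM for each canonical subunit, Rev over IR6 (upper panel) and iso1a body over Rev and over IR6 (lower panel); bars are exact 95% intervals for counting error and dashed lines mark 2-fold. All 31 points of the upper panel lie between -0.91 and 0.93, whereas Rpt1 reaches -4.70 in the lower panel.

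In the iso1a whole body 23 of the 31 canonical subunits were called lower than in both Rev and IR6, and 0 were called higher. A gene was called here when both ratios passed 2-fold in the same direction, and the ratio closer to 0 was taken as its size. Of 10316 genes tested 19.3% were called lower and 35.2% higher, a split that turned with TMM factors to 28.5% lower and 24.8% higher, with 28 of 31 subunits lower. Among the 3119 other genes in the range of levels that the canonical subunits have in Rev (59.9 to 920 CPM) 29.9% were lower and 16.4% higher. The median log2 ratio was -1.52 over the subunits, 0.28 over all genes and -0.15 over the genes of like level. Testis and sperm markers summed to 1248 CPM in Rev, 1315 in IR6 and 2722 in iso1a, and the ovary and female markers differed as given above. The part of cell makeup, of the line and of the normalization label in these ratios was not tested. The sources do not say whether the label means a step that evens out abundant and rare cDNAs, in which case the level of an abundant gene in iso1a would not be its level in the flies.

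The subunits lowest in iso1a relative to the other bodies came from every subcomplex, with the ATPases farthest down. The ATPase Rpt1 stood at 577 CPM in Rev, 549 in IR6 and 22.1 in iso1a, 25.9-fold and 24.7-fold lower (log2 -4.70 and -4.62, intervals -5.01 to -4.41 and -4.94 to -4.34). Rpt4 stood at 215, 185 and 14.2 CPM (-3.92 and -3.70), and Rpt6 at 492, 471 and 43.4 CPM (-3.50 and -3.44). These 3 ATPases were thus between 10.8-fold and 25.9-fold lower in iso1a, and the iso1a count of Rpt4 rests on 62 reads. Of the ATPases 5 of 6 were called, with a median of -2.60.

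In the core particle 5 of 6 alpha and 5 of 7 beta subunits were called lower in iso1a. Prosbeta7, a non-catalytic beta subunit, stood at 552 CPM in Rev, 508 in IR6 and 41.6 in iso1a (-3.73 and -3.61). Prosalpha6 stood at 920, 482 and 82.4 CPM (-3.48 and -2.55). The 3 catalytic subunits were all called, with log2 ratios of -2.15 and -2.28 for Prosbeta1, the caspase-like site, -2.41 and -1.73 for Prosbeta2, and -1.52 and -1.71 for Prosbeta5, the chymotrypsin-like site. The remaining called subunits of the core were Prosalpha2, Prosalpha3, Prosalpha5, Prosalpha7 and Prosbeta6, whose ratios lay between -2.33 and -1.04. Prosalpha4 (-0.71 and -0.89), Prosbeta3 (-0.87 and -0.74) and Prosbeta4 (-0.997 and -1.91) stayed inside 2-fold against at least 1 of the bodies, and all 3 passed it with TMM factors.

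Of the non-ATPase subunits of the base, 3 of 4 were called lower in iso1a, and of the lid 5 of 8. Rpn9, a lid scaffold subunit, stood at 465 CPM in Rev, 396 in IR6 and 50.2 in iso1a (-3.21 and -2.98). Rpn13, a ubiquitin receptor, stood at 188, 157 and 26.9 CPM (-2.79 and -2.54), and Rpn11, the deubiquitinase, at 287, 239 and 86.1 CPM (-1.74 and -1.47). Rpn10, the other ubiquitin receptor of the base, was called at -1.33 and -1.42, as were Rpn1, Rpn3, Rpn5 and Rpn7 with ratios between -2.45 and -1.13. Exons of Rpt4 overlap wuho and those of Rpt6 overlap CG1801, both on the opposite strand, and among the 19 subunits without such an overlap 14 were called lower.

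By CPM, the lid subunits Rpn6, Rpn8 and Rpn12 had levels in iso1a close to those in the other bodies. Rpn6 stood at 240 CPM in Rev, 273 in IR6 and 326 in iso1a, with log2 ratios of 0.44 (0.35 to 0.54) and 0.26 (0.16 to 0.35). Rpn8 stood at 59.9, 49.5 and 59.8 CPM, and Rpn12 at 96.0, 85.1 and 82.4 CPM. Rpn6 was thus the most abundant canonical subunit in iso1a by CPM and by CPM per kb. TMM factors shifted the iso1a ratios by -0.52 (Rev) and -0.61 (IR6), and all 8 lid subunits, Rpn6 among them, then lay below both bodies. Rpn6, Rpn8 and Rpn12 were still not called. Rpt5 (-1.15 and -0.71) and Rpn2 (-1.17 and -0.71) were the other subunits not called, and both passed 2-fold with TMM factors. No exon overlap with another gene was annotated for Rpn6, Rpn8 or Rpn12.

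Other multisubunit complexes and the genes that feed the proteasome had their own counts in this comparison, where 19.3% of all genes tested were called lower and 35.2% higher. Of the 8 subunits of the CCT chaperonin, which folds actin and tubulin, 6 were called lower and 0 higher (median -1.82), with CCT1 at -1.85 and -1.88 and CCT6 at -2.38 and -2.61. Of 14 genes named for subunits of the translation initiation factor eIF3, which shares its architecture with the lid, 9 were lower and 1 higher (median -1.37). Of 9 genes named for subunits of the COP9 signalosome, the other relative of the lid, 4 were lower and 1 higher (median -0.53). Of 84 ribosomal protein genes 64 were lower and 3 higher (median -2.43). Paralogs in these lists, such as CSN1a and CSN1b, were not set apart. The medians were below 0 for all 4 complexes with TMM factors too.

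Within the signalosome and eIF3, the single subunits called higher in iso1a were CSN8 and eIF3j. CSN8 stood at 12.1 CPM in Rev, 13.2 in IR6 and 145 in iso1a (log2 3.58 and 3.45), against CSN5, the catalytic subunit of the signalosome, at 294, 259 and 38.1 CPM (-2.94 and -2.76). Within the signalosome the direction thus differed between subunits, as it did in eIF3, where eIF3h stood at 1096, 1309 and 33.8 CPM and eIF3j at 100.2, 104 and 345 CPM. The eIF3 subunits eIF3i (-3.19 and -3.37) and eIF3g1 (-4.20 and -4.54) were lower too.

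Among 11 tested genes of proteasome assembly, activation and transcriptional control, 3 were called higher in iso1a and 0 lower. That is 27.3% higher, below the 35.2% of all genes called higher, so the count is no result about the list. The gene cnc encodes the fly relative of Nrf1 and Nrf2, which drive proteasome genes, and stood at 295 CPM in Rev, 216 in IR6 and 1379 in iso1a (log2 2.23 and 2.68). Its dimer partner maf-S stood at 53.0, 61.5 and 148 CPM (1.48 and 1.27). Sem1, a small lid subunit also known as Rpn15 that the naming rule does not include, stood at 41.4, 42.0 and 242 CPM (2.55 and 2.53). Exons of cnc overlap Irk1 and CG46310 and those of Sem1 overlap Nuf2, on the opposite strand. The median of the list was 0.00 and turned to -0.29 with TMM factors.

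Among 22 genes of ubiquitin supply and delivery 4 were higher and 9 lower in iso1a, with a median of 0.00 that turned to -0.48 with TMM factors. That is 18.2% higher and 40.9% lower, against 35.2% and 19.3% of all genes tested. The count of higher genes, below that share, is no result about the list. The ubiquitin-conjugating enzyme gene ben stood at 214 CPM in Rev, 195 in IR6 and 1748 in iso1a (log2 3.03 and 3.17). The polyubiquitin gene Ubi-p63E stood at 28.6, 30.7 and 164 CPM (2.52 and 2.42), and the ubiquitin fusion gene RpL40 at 959, 887 and 141 CPM (-2.77 and -2.65). Ubi-p63E and RpL40 thus stood on opposite sides of the other bodies in iso1a. RpS27A, the other ubiquitin fusion gene, was lower (-1.77 and -1.62), as was CG8209 (-4.19 and -3.81), whose exons overlap Pop4. TER94, the ATPase that pulls ubiquitylated proteins from complexes, stood at 173, 131 and 399 CPM (1.21 and 1.61), while its cofactors Ufd1 (-2.57 and -2.99) and Npl4 (-1.72 and -1.73) were lower.

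The T and R paralogs had reads in all 3 whole bodies and nearly none in the ovaries. All 15 listed paralogs were counted in each body library, with 1464 reads in Rev, 1829 in IR6 and 608 in iso1a. The pyrosequenced ovary held 1 read, of Rpt3R, and the Solexa ovary held 62 reads, 34 of Rpt3R and 28 of Rpn12R. Paralogs thus made up 0.132% of all subunit counts in the pyrosequenced ovary (interval 0.00334% to 0.734%), 0.244% in the Solexa ovary (0.187% to 0.313%), 1.42% for Rev (1.35% to 1.49%), 2.32% for IR6 (2.22% to 2.43%) and 5.37% for the iso1a body (4.96% to 5.80%).

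**Figure D3:**
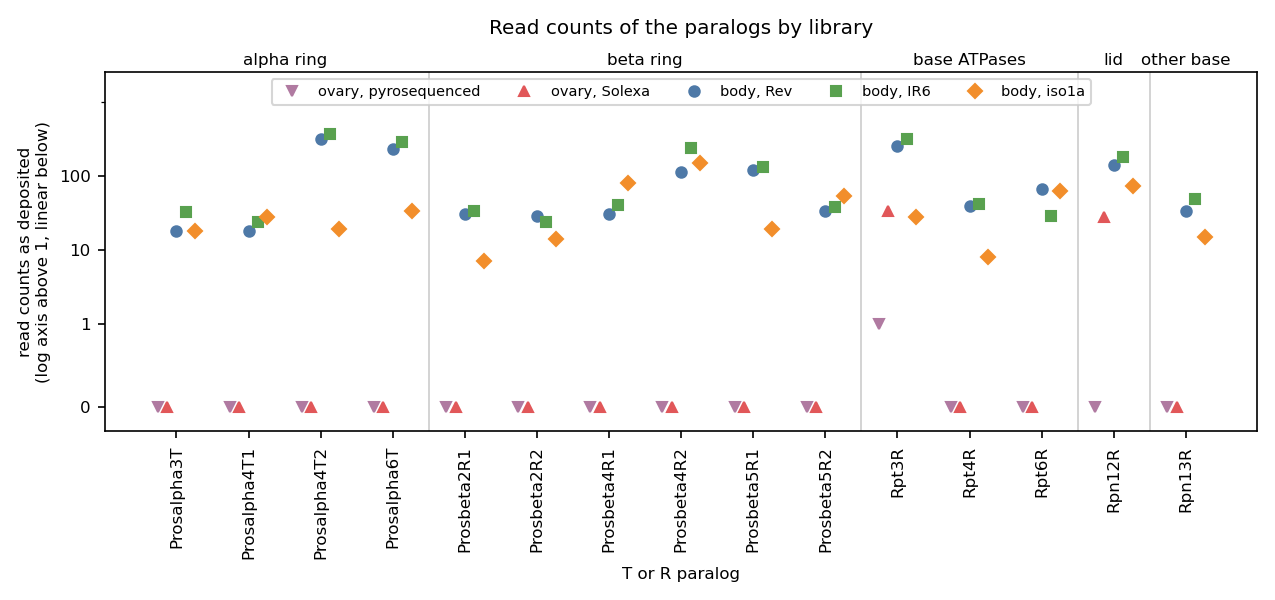
Deposited read counts of the 15 listed paralogs in each library, grouped by subcomplex of the partner, on an axis that is logarithmic above 1 and linear below. The ovary points lie at 0 except for Rpt3R (1 and 34 counts) and Rpn12R (28 counts), and library totals differ between 109980 and 11685814.

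In the Solexa ovary 13 of the 15 paralogs were at 0, where 3 counts would stand for 1.07 CPM. Of all 13265 listed genes 5804 had counts in that library, against 12817 in Rev, so absence there was common and not particular to paralogs. Prosalpha4T2, an alpha ring paralog, stood at 26.7 CPM in Rev, 38.1 in IR6 and 4.34 in iso1a, at least 25.04-fold, 35.7-fold and 4.07-fold above the ovary floor. Prosalpha6T stood at 19.4, 29.8 and 7.76 CPM, at least 18.2-fold, 27.9-fold and 7.28-fold above it. Prosbeta4R2 stood at 9.50, 24.8 and 34.2 CPM, at least 8.91-fold, 23.3-fold and 32.1-fold above it. These bounds hold between libraries that differ in tissue, assay and, for Rev and IR6, line. The smallest bounds, 1.44-fold against Rev, were those of Prosalpha3T and Prosalpha4T1 with 18 counts each, so for them a 2-fold difference between Rev and ovary was not detectable at this depth.

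Rpt3R and Rpn12R were the paralogs with reads in the ovary, and neither was called at 4-fold against any body. Rpt3R, a paralog of the ATPase Rpt3, stood at 12.1 CPM in the Solexa ovary, 21.7 in Rev, 32.5 in IR6 and 6.39 in iso1a. Rpn12R, a paralog of the lid subunit Rpn12, stood at 9.95, 12.1, 18.7 and 16.7 CPM. Against Rev the log2 ratio of the ovary was -0.83 (-1.41 to -0.33) for Rpt3R and -0.26 (-0.92 to 0.31) for Rpn12R. Exons of Rpt3R overlap those of Alg12 on the opposite strand, which the stranded ovary libraries, unlike the bodies, can keep apart. In the same library 31 of 34 testis markers were at 0, and the markers twe, aly and mia had 187, 41 and 9 counts.

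Per length, the paralogs reached between 0.536% and 31.7% of the level of their canonical partner in the bodies. The median over 15 pairs was 1.51% in Rev, 2.30% in IR6 and 9.88% in iso1a. Rpt3R was highest in Rev at 16.0% of Rpt3 (13.9% to 18.2%) and in IR6 at 28.1% (24.7% to 31.8%), and in iso1a it reached 14.1% (9.17% to 21.0%). Rpn12R reached 13.3%, 23.2% and 21.4% of Rpn12, and Prosalpha4T2 11.2%, 14.1% and 2.98% of Prosalpha4. The lowest pair in Rev was Prosbeta5R2 at 0.536% of Prosbeta5, and in IR6 Rpt6R at 0.621% of Rpt6.

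**Figure D4:**
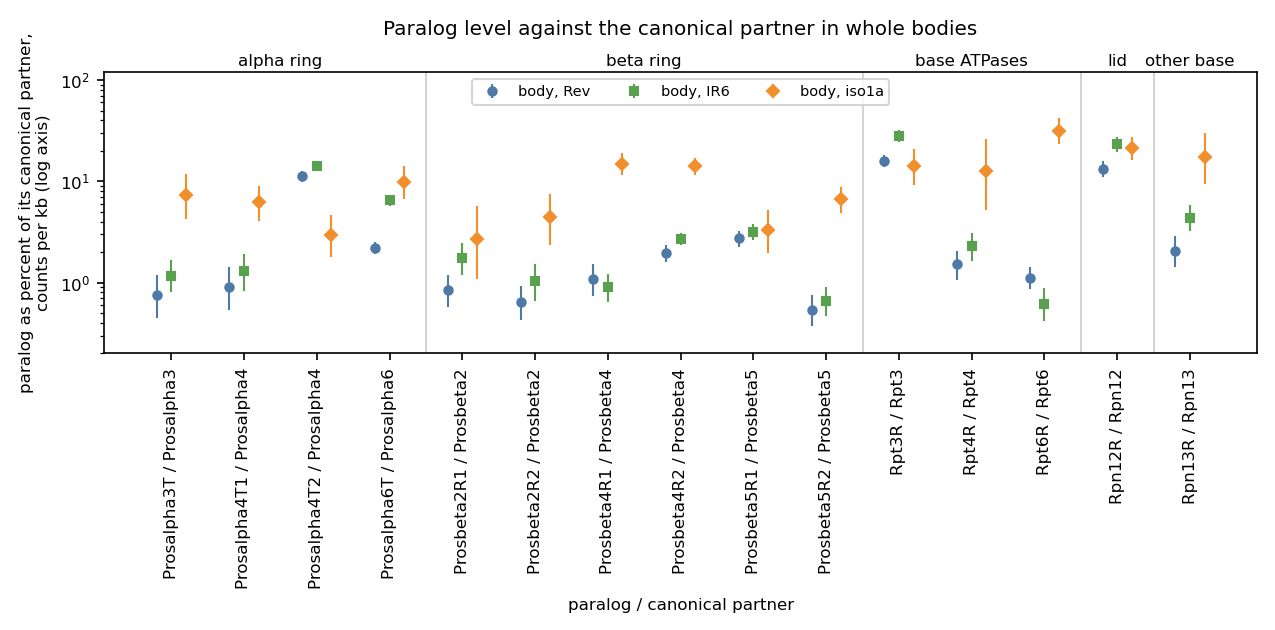
Level of each paralog as a percentage of its canonical partner in the 3 whole bodies, from counts per kb of transcript, on a log axis; bars are exact 95% intervals for counting error. Rpt3R and Rpn12R lie highest in Rev and IR6, and Rpt6R lies at 1.12% in Rev, 0.621% in IR6 and 31.7% in iso1a.

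The percentage was higher in iso1a than in both other bodies for 12 of the 15 pairs, and of the partners of these pairs all but Prosalpha4 and Prosbeta4 were called lower there. Among these pairs the intervals of iso1a and IR6 overlapped for Prosalpha6T, Prosbeta2R1 and Prosbeta5R1. The percentage was not computed for other pairs of a rare and an abundant gene, so the count is not read as particular to paralogs. Rpt6R, a paralog of the ATPase Rpt6, had 66 counts against 5745 of Rpt6 in Rev, 29 against 4538 in IR6 and 62 against 190 in iso1a. Its percentage of 31.7% in iso1a (23.4% to 42.4%) thus came with a higher level of the paralog, 14.2 CPM against 5.65 and 3.01, and with a partner 11.3-fold and 10.8-fold lower. Prosbeta4R1 reached 14.9% of Prosbeta4 in iso1a (11.6% to 18.9%) against 1.08% in Rev and 0.898% in IR6. Between Rev and IR6 the percentage was higher in IR6 for 13 of 15 pairs, with Rpt6R and Prosbeta4R1 as the exceptions. The intervals of Rev and IR6 overlapped for several of these pairs, Prosalpha4T1 and Prosbeta5R1 among them.

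Between Rev and IR6 the log2 ratio lay below 0 for 14 of the 15 listed paralogs, by less than 2-fold in most cases. The interval for counting error lay below 0 for 8 of them, above 0 for 1 paralog, and held 0 for 6. Of 14 paralogs with at least 50 counts in the pair 2 were called lower in Rev and 0 higher, where 3.47% of all genes tested were lower and 4.34% higher. The median log2 ratio was -0.55, against 0.10 over all genes, of which 4176 of 10300 tested lay below 0. Prosbeta4R2 stood at 9.50 CPM in Rev and 24.8 in IR6 (-1.38, interval -1.72 to -1.05), and Prosalpha3T at 1.54 and 3.32 CPM (-1.09, -2.03 to -0.23). Rpt6R alone lay above 0, at 5.65 and 3.01 CPM (0.89, 0.26 to 1.59). Exons of Prosbeta4R2 overlap those of the odorant receptor gene Or23a on the same strand.

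Markers of the male reproductive tract went in both directions in this comparison, with medians below 0. Of 28 testis and sperm markers tested between Rev and IR6, 2 were called lower in Rev and 0 higher, with a median log2 ratio of -0.35, and 18 lay below 0 and 10 above. Over all 10300 genes tested 3.47% were called lower and 4.34% higher, and 4176 lay below 0 and 6124 above. Among those above was twe, with 1424 counts in Rev and 795 in IR6, and among those below dj, with 1378 and 1610. Of 7 accessory gland markers 2 were lower and 0 higher, with a median of -0.69, and the 8 markers summed to 685 CPM in Rev and 1013 in IR6. For the 20 ovary and female markers the median was 0.07, with 2 higher and 0 lower. With only 2 genes called in each list, these calls are no result about the lists. The part of the share of male RNA in the paralog ratios was not tested.

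In the iso1a body the paralogs went in both directions relative to the other bodies. With at least 50 counts in both pairs 9 could be compared: 4 were called lower, 3 higher and 2 were not called. Among the 4278 other genes in the range of levels that the paralogs have in Rev (1.54 to 26.7 CPM) 11.2% were called lower and 48.9% higher, with a median log2 ratio of 0.94. At these levels some paralogs, testis markers and other genes reached 50 counts only through their iso1a reads, so these shares and medians lean toward higher and nothing is read from them. Of 23 testis and sperm markers tested 14 were called higher and 4 lower, with a median of 1.69.

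The 3 paralogs with the most reads in both Rev and IR6 were all lower in iso1a. They were picked by the same counts that the ratios divide by, a choice that leans toward lower ratios. Their shared direction is therefore no result about the paralogs as a set. Prosalpha4T2 stood at 26.7 CPM in Rev, 38.1 in IR6 and 4.34 in iso1a (log2 -2.59 and -3.10, intervals -3.37 to -1.95 and -3.88 to -2.47). Rpt3R stood at 21.7, 32.5 and 6.39 CPM (-1.74 and -2.32), and Prosalpha6T at 19.4, 29.8 and 7.76 CPM (-1.31 and -1.92). Prosbeta5R1, a paralog of the catalytic Prosbeta5, was called lower too (-1.22 and -1.64). Prosbeta5R1 and the 3 above reached the minimum count of a pair through their Rev and IR6 reads, with 19 to 34 counts in iso1a. The testis tubulin gene betaTub85D had 3818 counts in both Rev and IR6 and 310 in iso1a, and the sperm tail gene dj had 1378, 1610 and 1746.

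The paralogs higher in iso1a had 29 to 66 counts in each of the other bodies. Prosbeta4R1 stood at 2.65 CPM in Rev, 4.15 in IR6 and 18.3 in iso1a (2.77 and 2.13, intervals 2.17 to 3.43 and 1.57 to 2.72). Prosbeta5R2 stood at 2.82, 3.94 and 12.1 CPM (2.09 and 1.61), and Rpt6R at 5.65, 3.01 and 14.2 CPM (1.33 and 2.22), a call that was lost with TMM factors, where the smaller ratio was 0.80. By CPM, Prosbeta5R1 lay lower and Prosbeta5R2 higher in iso1a than in the other bodies. Prosbeta4R1 and Prosbeta5R2, and Rpt6R against IR6, reached the minimum count of a pair only through their iso1a reads. Their selection thus leans toward higher ratios, and the number called higher is no result about the paralogs. Prosbeta4R2 (1.85 and 0.47) and Rpn12R (0.47 and -0.16) were not called. The remaining 6 paralogs, Prosalpha3T, Prosalpha4T1, Prosbeta2R1, Prosbeta2R2, Rpt4R and Rpn13R, had between 7 and 28 counts in iso1a.

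Between the Solexa ovary and the Rev and IR6 bodies 27 of 31 canonical subunits were not called, and single subunits went both ways. Ovary reads are 5′ ends, which do not scale with transcript length, so these differences were called at 4-fold. In the Solexa ovary 1 of 31 subunits was higher than in both Rev and IR6 and 3 were lower, where 5.28% of 9113 genes were higher and 57.9% lower. The median log2 ratio was -0.21 over the subunits and -2.89 over all genes, and the subunits' median turned to 0.55 with TMM factors and 0.45 with median-ratio factors, which raised the ratios to the Rev body by 1.04 and 1.00. The subunits' direction between ovary and these bodies therefore depended on the scaling, with TMM giving 6 higher and 0 lower.

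**Figure D5:**
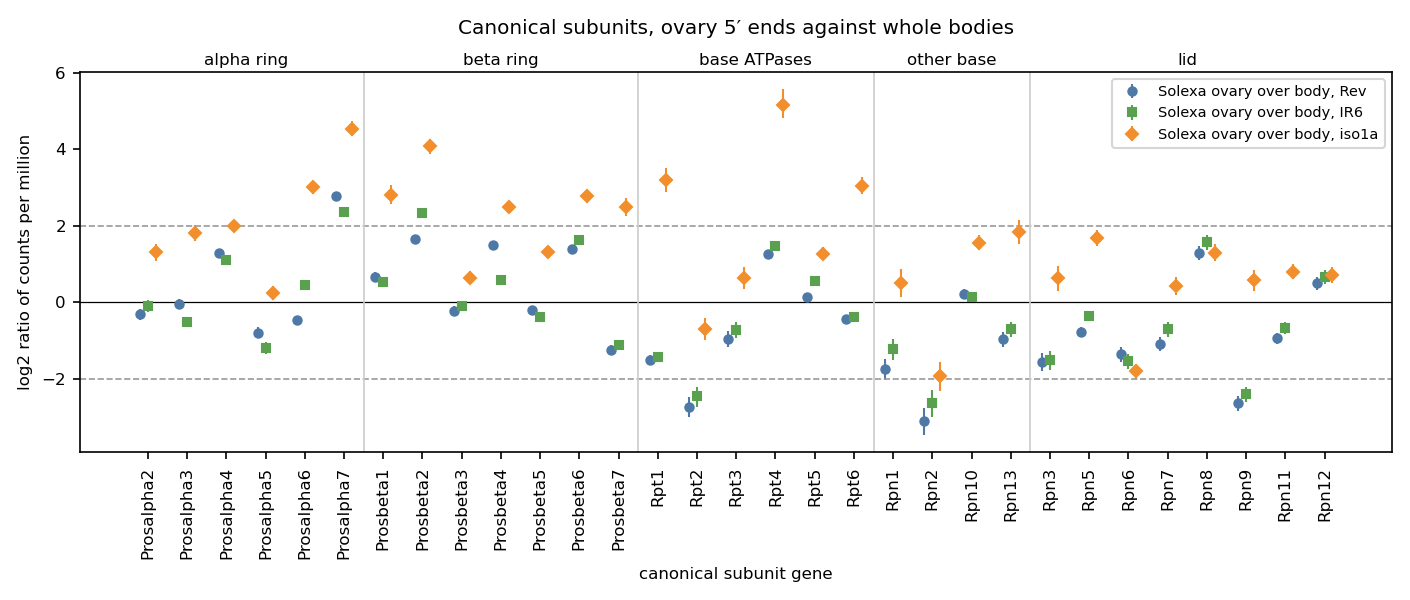
Log2 ratio of CPM of each canonical subunit in the Solexa ovary over the Rev, IR6 and iso1a bodies; bars are exact 95% intervals for counting error and dashed lines mark 4-fold. Against Rev and IR6 the points scatter on both sides of 0, whereas 28 of 31 lie above 0 against the iso1a body.

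The subunit that stood out upward in the ovary was Prosalpha7. It stood at 1232 CPM in the Solexa ovary, 181 in Rev, 238 in IR6 and 53.0 in iso1a (log2 2.77, 2.37 and 4.54). The pyrosequenced library of the same tissue held 8 reads of it, 72.7 CPM, which was 15.9-fold lower than in the Solexa library (-3.99, interval -5.29 to -3.10). The high value thus belonged to 1 of the 2 ovary libraries. The lower genes were the base scaffold Rpn2, at 25.2 CPM in the ovary, 217 in Rev and 158 in IR6 (-3.10 and -2.64), the ATPase Rpt2 (-2.73 and -2.46) and Rpn9 (-2.64 and -2.41), and all 3 calls were lost with TMM and with median-ratio factors, although Rpn2 stayed past 4-fold against Rev alone (-2.06 and -2.09).

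Against the body of its own line the Solexa ovary had 10 canonical subunits called higher and 0 lower, where 5.08% of 8854 genes were higher and 61.4% lower. The median log2 ratio was 1.32 over the subunits and -3.42 over all genes, and both scalings raised it further, to 2.88 and 2.38. Rpt4 had the widest gap, at 513 CPM in the ovary and 14.2 in the body (5.17, interval 4.81 to 5.57), followed by Prosalpha7 and Prosbeta2 (4.08). Of the beta ring 5 of 7 were called, of the ATPases 3 of 6, of the alpha ring 2 of 6, and of the other base subunits and the lid 0 of 4 and 0 of 8. With TMM factors 26 of the 31 were higher, 6 of 8 lid and 3 of 4 other base subunits among them, and with median-ratio factors 19, with 2 of each, so the contrast between subcomplexes depended on the scaling. This comparison shares the Solexa ovary with the preceding one, and tissue, assay and normalization label differ together in it.

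The core particle held a larger part of the subunit reads in the ovary libraries than in the bodies. Alpha and beta subunits made up 75.8% of canonical counts in the pyrosequenced ovary (72.6% to 78.8%) and 69.0% in the Solexa ovary (68.4% to 69.6%). In the bodies they made up 47.3% in Rev, 49.9% in IR6 and 46.2% in iso1a. Body counts scale with transcript length, and per kb of transcript the body shares were 58.3%, 61.1% and 58.6%. The ovary shares lay above these too, with the assay and the tissue not told apart.

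The 2 ovary libraries, of the same line and tissue, differed in the order of the subunits. The pyrosequenced library had 4 subunits at least 2-fold higher and 9 lower than the Solexa library, where 14.9% of 3366 genes were higher and 40.5% lower, and the medians were -0.64 over the subunits and -0.67 over all genes. With TMM factors 15 subunits were lower and 3 higher. Prosalpha6 stood at 2000 CPM in the pyrosequenced library and 662 in the Solexa library (1.60, interval 1.39 to 1.80), the highest subunit of the pyrosequenced library, and Rpn1 at 136 and 41.9 CPM (1.74, 0.82 to 2.48). Rpt1 stood at 36.4 and 203 CPM (-2.31), Prosbeta5 at 54.6 and 339 CPM (-2.52) and Rpn10 at 45.5 and 226 CPM (-2.18). Counts in the pyrosequenced library ran from 3 to 220 per subunit, and the interval held 0 for 11 of the 31. Platform and normalization label differ together between these libraries.

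The canonical genes with and without a paralog differed in where they lie in the genome. By the RefSeq and Ensembl annotation of the newer fly assembly, 12 canonical subunits had at least 1 paralog and 20 had none. The 4 canonical subunits on the X chromosome, Prosalpha4, Rpt3, Rpt4 and Rpt6, all had a paralog, and all 5 of their paralogs lay on autosomes. Of the 11 paralogs with an autosomal partner 2, Prosbeta2R1 and Rpn13R, lay on the X. These are facts of the annotation and carry no error from the libraries.

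The paralogs also had fewer exons. Of 16 paralogs 10 had fewer exons than the partner, 6 had as many and 0 had more, and 6 had a single exon, against 4 of 32 canonical genes. Prosalpha3T, Prosalpha4T1, Prosalpha6T, Prosbeta5R2, Rpn12R and Rpn13R were the single-exon paralogs, and 10 of the 16 lay on another chromosome arm than the partner. Of the 3 paralogs with the most reads in Rev and IR6, Prosalpha4T2 has 3 exons, as many as Prosalpha4, while Rpt3R has 2 against 3 of Rpt3 and Prosalpha6T 1 against 3 of Prosalpha6.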

How the data were processed

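Each library had a deposited table of read counts per annotated transcript, and these counts were used as the authors deposited them. The submitters' processing notes name Bowtie. Its version, the genome build, the treatment of reads with several matches and the meaning of the normalization label are not given in the sources used here. Tables of transposable elements were not used. Identifiers were matched to RefSeq symbols, 12473 by locus tag, 547 by older locus tag (Rpn3 among them) and 64 by synonym, while 181 stayed unmatched. A gene's value was the largest count among its transcripts, and a gene not listed in a library got 0. The row that names no gene (1, 0, 430, 237 and 681 counts in pyrosequenced ovary, Solexa ovary, Rev, IR6 and iso1a body) was left out. Transcript lengths, exon counts and exon overlaps came from the longest transcript or all exons of the Ensembl BDGP6 annotation, and no coordinates or sequences were used.

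CPM were counts per 1000000 gene counts. Ratios were log2 of CPM with 0.5 counts added, with exact 95% intervals conditional on the sum of both counts. At least 50 counts were needed in each pair, and a gene was called at 2-fold, or 4-fold for ovary against body, in all pairs of a comparison. A count of 0 was replaced by 3 counts in that library for bounds. Intervals and floors cover counting error only, and reads without molecular identifiers are not independent molecules.

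Genes named are the members and, of the other lists, genes from the 4 with the most counts among those called in a comparison. Beyond this rule eIF3j, TER94, Ufd1, Npl4 and Ubi-p63E were chosen after their values were seen. The symbols Pa200, Ecm29, rye and nos had no unique match. The members, lists and tests were chosen with earlier results of these data known. R 4.3.3 with edgeR 4.0.16 gave the TMM factors, and DESeq2 1.42.0 the median-ratio factors. Remaining steps ran in Python 3.11.15 (scipy 1.17.1, numpy 2.4.6, pandas 2.3.3, matplotlib 3.10.9). The procedure was tested on simulated counts. Alternatives were other scalings, sums over transcripts, no minimum count, members without exon overlap and body counts per kb. Body counts per kb together with median-ratio factors were added after seeing the data.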

Additional observations from a re-analysis of the deposited data

How the results depend on the processing

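No paired analysis was possible because each group holds 1 library, and for the same reason no replicate could be left out. Between Rev and IR6 the canonical median of 0.22 (log2) became 0.13 with TMM and 0.059 with median-ratio factors, with 1 subunit lower under each (Prosbeta4) in place of 0. For the iso1a body the canonical median of -1.52 became -2.08 with TMM and -1.92 with scaling that left out the 100 most abundant genes of each library, and the number lower went from 23 of 31 to 14 of 19 without members whose exons overlap another gene. Of all genes, 3635 were higher and 1991 lower in iso1a, against 2563 and 2936 with TMM, which shifted these ratios by -0.52 (Rev) and -0.61 (IR6). Between Rev and IR6 the split of 447 higher and 357 lower became 350 and 416 with TMM and 299 and 496 with median-ratio factors.

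For the Solexa ovary against Rev and IR6 the canonical median of -0.21 became 0.55 with TMM, 0.45 with median-ratio factors, 0.016 with sums over transcripts, -0.62 with body counts per kb and 0.035 with body counts per kb and median-ratio factors. The number higher, 1, became 6, 5, 2, 0 and 4 in that order, and the number lower, 3, became 0 with TMM, with median-ratio factors and with the last setting. Against the iso1a body the median of 1.32 became 2.88 with TMM, 2.38 with median-ratio factors, 1.94 with sums over transcripts and 2.44 with body counts per kb and median-ratio factors, and the number higher, 10, became 26, 19 and 18 with the first, second and last of these. Sums over transcripts gave 1 lower in place of 0. The pyrosequenced library had 15 subunits lower than Solexa with TMM in place of 9.

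The paralog median in iso1a of 0.00 became -0.052 with TMM, and the median paralog percentage in IR6 fell from 2.30% to 1.60% with sums over transcripts. The coefficient of variation over the 31 canonical subunits was 69.2% in Rev, 62.9% in IR6 and 70.0% in iso1a per kb, against 78.0%, 79.4% and 94.0% with sums over transcripts and 60.9% (Rev) and 52.2% (IR6) with no length scaling. With TMM the iso1a medians turned from 0.00 to -0.29 for assembly genes and to -0.48 for ubiquitin genes, and between Rev and IR6 those of eIF3 from 0.01 to -0.075 and of the CCT chaperonin from 0.02 to -0.063. The cause of these shifts was not tested. Of 132 recomputed values 88 kept their direction and size, 35 moved and 9 changed sign. The pyrosequenced library limits the ovary values most, with 3 counts at 27.3 CPM and 756 canonical reads in all.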

Other observations

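The Solexa ovary library gave different counts to the annotated transcripts of some subunits and equal counts to those of others. Rpn6 had 263 counts on transcript RB and 0 on RA there, while the bodies held 2805 and 2621 in Rev, 2631 and 2451 in IR6, and 1429 and 1428 in iso1a on the same transcripts. Prosalpha5 had 416 counts on RA and 0 on RB in the Solexa ovary, and Prosbeta5 had 953 on RA and 536 on RB. Rpn9 had 210 on RA and 28 on RB. Of 5 transcripts of Rpn13, RB and RE had 270 counts each and RA, RD and RF had 0. The 2 transcripts of Prosalpha7 had 3466 counts each, those of Prosbeta7 657 each and those of Rpt3R 34 each. In the pyrosequenced ovary library the transcripts of Rpn6 (7 each), Prosalpha5 (9 each), Prosbeta5 (6 each) and Rpn13 (5 each) had equal counts, and those of Rpn9 had 7 and 6. The numbers of reads there are too small to compare start sites at this depth.

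Sem1 and CSN8, which are small subunits of the lid and of its relative the signalosome, had their highest level in the Solexa ovary library. Sem1 stood at 4896 CPM there, 591 in the pyrosequenced ovary, 41.4 in Rev, 42.0 in IR6 and 242 in iso1a bodies, a log2 ratio of 6.88 and 6.86 against Rev and IR6. CSN8 stood at 605, 118, 12.1, 13.2 and 145 CPM in the same order, with ratios of 5.64 and 5.52. In both genes the Rev and IR6 bodies were lowest and the iso1a body lay between them and the Solexa ovary. The 8 lid subunits with Rpn names ranged from 56.5 to 202 CPM in the Solexa ovary, and CSN5 of the signalosome stood at 403 CPM there. In the pyrosequenced ovary CSN5, at 155 CPM, lay above CSN8. Exons of Sem1 overlap Nuf2 on the opposite strand, and no exon overlap was annotated for CSN8.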
